A study of Mus musculus with 56 samples.

Results

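Border-associated macrophages (BAMs) of the mouse cortex were taken as the cells with at least 8 UMIs summed over 6 genes, Pf4, Lyve1, F13a1, Ms4a7, Cbr2 and Cd163. A UMI is 1 counted mRNA molecule. The rule was applied to single-cell 3'-end RNA libraries of sorted CD45int CD11bint cells, after cells with fewer than 500 genes or with 10% or more mitochondrial UMIs had been left out. It found 639 BAMs among 15335 kept cells. The 14676 other cells with at least 1 UMI of C1qa, a complement gene of all brain macrophages, are called the remaining cells below. Another 20 cells held no C1qa and entered no comparison.

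The 8 libraries come from cortex of mice on a B6 background and form 4 groups of 2. They are wild type at postnatal day 9 (P9), wild type at P28, P9 mice heterozygous for the IL-33 receptor gene ST2 (Il1rl1; ST2 Het), and P9 mice without it (ST2 KO), which the study set against littermate controls. The names of the wild-type and of the ST2 libraries carry different date-like strings, so they differ in that label as well as in genotype. No source used here says how many animals entered a library, so each p-value below measures the spread between 2 libraries a group. The series also holds bulk samples, which were not used here. Between the libraries 135 barcodes recurred among the kept cells, at most 14 in any pair, and 0 among the BAMs.

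BAMs sit in the meninges and along blood vessels, between the brain tissue and the blood, while microglia lie within the tissue itself. Both are macrophages that depend on the growth factor receptor CSF1R. BAMs are known for scavenger and lectin receptors, which take up proteins, lipids and microbes from the fluid around vessels, for chemokines that draw in other leukocytes, and, in a fraction of the cells that grows with age, for MHC class II, which presents peptides to CD4+ T cells. The genes of MHC class II are switched on together by a complex that binds a conserved group of promoter motifs, one of which is the Y box. Immediate early genes such as Fos and Atf3 are switched on within minutes of a stimulus, partly through cAMP response elements with the core TGACG.

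The comparison of P28 with P9 BAMs below describes the MHC class II and the immediate early genes. The promoters of 4 genes of these lists are shown for that reason, each 5' to 3' on the gene's own strand, from the RefSeq table for GRCm38.p6. The bases in capitals match the letters CTGATTGG, which hold the Y box core, in the MHC class II genes, and TGACG or its reverse complement CGTCA in the other genes. The first sequence is chr17:34287824-34287973 on the minus strand and ends just before the H2-Aa start, with the match 51 bases before that start. The next is chr17:34305717-34305866 on the plus strand at H2-Eb1, with the match 62 bases before the start. The third is chr12:85473770-85473889 on the plus strand at Fos, and the last chr1:191183334-191183453 on the minus strand at Atf3, with matches 66 and 7 bases before the start.
H2-Aa: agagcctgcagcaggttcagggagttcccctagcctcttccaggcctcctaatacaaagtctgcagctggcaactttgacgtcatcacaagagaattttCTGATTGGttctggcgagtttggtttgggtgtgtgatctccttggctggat
H2-Eb1: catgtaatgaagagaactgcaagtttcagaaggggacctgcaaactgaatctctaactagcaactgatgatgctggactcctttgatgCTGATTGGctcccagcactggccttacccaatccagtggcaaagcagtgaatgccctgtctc
Fos: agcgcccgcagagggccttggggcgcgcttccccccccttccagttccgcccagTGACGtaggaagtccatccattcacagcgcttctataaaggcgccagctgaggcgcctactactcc
Atf3: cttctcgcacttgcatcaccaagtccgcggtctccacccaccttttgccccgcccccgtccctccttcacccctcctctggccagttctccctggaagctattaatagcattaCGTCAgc
On either strand of the 250 bases before the start, CTGATTGG was present in 3 of 7 listed MHC class II genes that have a promoter in RefSeq. These were H2-Aa, H2-Eb1 and H2-Oa. Counted the same way, by any promoter of a gene, it was present in 4.43% of 27025 genes. TGACG was present in 10 of 19 immediate early genes with a promoter, against 19.8% of the 27025 genes. Such a match is a description of letters, not of binding.

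BAMs made up a larger share of the kept cells in the P9 wild-type libraries than in any other group. In the P9 wild-type libraries 242 of 2861 and 219 of 2497 cells were BAMs, shares of 8.46% (95% exact Clopper-Pearson interval 7.46% to 9.54%) and 8.77% (7.69% to 9.95%). The P28 libraries held 53 and 46 BAMs, 1.81% and 1.54% of their cells. The ST2 Het libraries held 26 and 18 (2.02% and 1.41%), and the ST2 KO libraries 15 and 20 (2.23% and 2.42%). The P9 wild-type shares thus lay above those of the other P9 mice as well as above those at P28, and the intervals of the other 6 libraries overlapped.

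The mean share was 8.62% ± 0.22 (SD, n = 2) in P9 wild type and 1.67% ± 0.19 (SD, n = 2) at P28, a difference of 6.94 percentage points. The ST2 KO mean of 2.33% exceeded the ST2 Het mean of 1.72% by 0.61 points. Each comparison gave an exact two-sided permutation p of 0.33, the smallest that 2 against 2 libraries allow. The cells had been sorted for intermediate CD45, so the gate bears on how many BAMs reach a library, and its part in these shares was not tested. Among cells with at least 2000 UMIs, each thinned to 2000, the P9 to P28 difference was 6.07 points. This left 2668 of 2861 and 2396 of 2497 P9 wild-type cells, and 2078 of 2931 and 1992 of 2987 cells at P28.

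**Figure D1:**
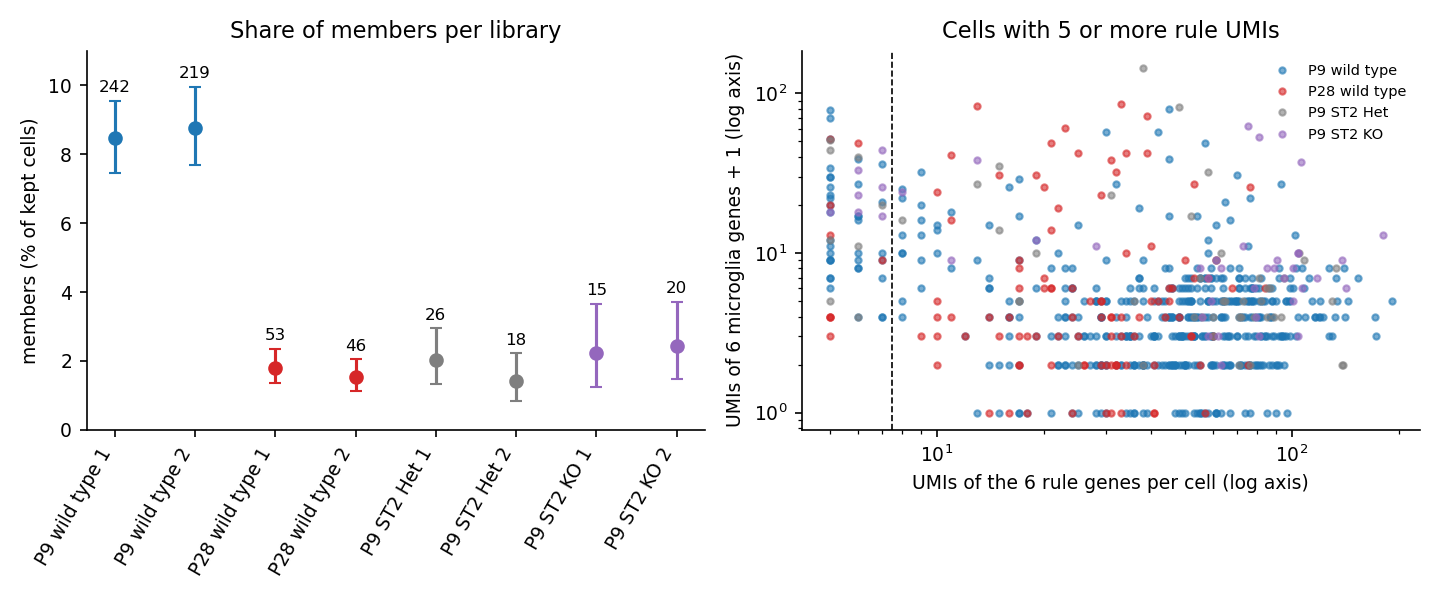
Left, the share of BAMs ("members") among kept cells in each of the 8 libraries, in percent, with 95% exact intervals and the number of BAMs above each point; both P9 wild-type libraries lie above 8% and the other 6 below 3%. Right, for every cell with at least 5 UMIs of the 6 rule genes, those UMIs (log axis) against the UMIs of 6 microglia genes plus 1 (log axis); the dashed line is the threshold of 8 UMIs.

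The BAMs were chosen by the UMIs of the 6 rule genes, which are therefore described without a test. Pf4, the chemokine platelet factor 4, had a UMI in 100% of the 639 BAMs and gave 74.4% of the UMIs that passed the threshold, so the rule rests largely on it. Ms4a7 was found in 92.2% of BAMs, the coagulation factor gene F13a1 in 79.0%, the hyaluronan receptor Lyve1 in 74.5%, the carbonyl reductase gene Cbr2 in 63.8% and the hemoglobin scavenger receptor Cd163 in 39.6%. All 6 were found in 136 BAMs, 5 in 235, 4 in 152, 3 in 50, 2 in 55 and 1 in 11. Pf4 stood at 11862 and 9693 CPM (UMIs of a gene scaled to a fixed total of the summed cells' UMIs) in P9 wild-type BAMs, 5065 and 6736 at P28, 7772 and 9216 in ST2 Het, and 9590.1 and 10256 in ST2 KO. In the remaining cells its level was 12.5 to 72.9 CPM.

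BAMs held between 8 and 191 rule UMIs, with a median of 50. The 61 cells just outside the threshold, with 5 to 7 UMIs, had 372.5 CPM of the mannose receptor gene Mrc1 and 4273 CPM of the 6 microglia genes Tmem119, P2ry12, Sall1, Siglech, Slc2a5 and Gpr34. The 32 cells just inside it, with 8 to 12 UMIs, had 333 and 2228 CPM. All BAMs together had 1613 and 1540 CPM. These are pooled values, and 1 of the 32 cells, from P9 wild-type library 2, held 62192 UMIs, 21 of them of the 6 microglia genes. The median of the 32 cells was 3283 UMIs, so this cell lowered their microglia level. Per cell, the median was 9 microglia UMIs just inside and 16 just outside. Cells near the threshold thus carried less Mrc1 and more microglia RNA than BAMs as a whole, on both sides of it. A pair of cells with 5 rule UMIs in P28 library 2, and so outside, held 179 and 195 UMIs of MHC class II genes, a level reached by few BAMs.

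Of the 639 BAMs, 39 held more UMIs of those 6 microglia genes than of the rule genes, and 70 held more than 10. By library, microglia genes were in excess in 5 and 12 of the P9 wild-type BAMs, in 12 and 3 of those at P28, in 3 and 2 in ST2 Het and in 0 and 2 in ST2 KO. Values without such cells are given below for the microglia markers, for the cell cycle list with age and for some total counts. For the other lists they are not given.

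Markers of other cell types than microglia were low in BAMs but not absent, and 1 cell each stood out for neutrophil and endothelial UMIs. The summed endothelial list was 711 CPM in P9 wild-type library 2 and 39.2 to 131 in the BAMs of the other libraries, against 40.3 to 105 in the remaining cells. The neutrophil list summed to 11790.5 CPM in ST2 KO library 2, to 108 and 62.8 at P28 and to 0 to 3.45 in the other BAMs, and in the remaining cells to 1420 and 973 at P28 and 0 to 134 at P9. The monocyte list summed to 0 to 53.8 CPM in BAMs, the dendritic cell list to 18.4 to 127, the lymphocyte list to 32.8 to 116 and the oligodendrocyte list to 39.2 to 81.7. The monocyte and dendritic cell lists were highest in P28 library 1, and their part in the age comparison was not tested. A BAM of ST2 KO library 2 held 1434 neutrophil UMIs of 11049, among them 634 of S100a8, beside 181 rule UMIs. A BAM of P9 wild-type library 2 held 610 endothelial UMIs of 62192, among them 352 of Cldn5, beside 8 rule UMIs. No other BAM held more than 3 UMIs of either list. The monocyte genes Ly6c2, Vcan and F10, the dendritic cell genes Flt3 and Clec9a, the choroid plexus genes Ttr, Kl and Clic6, and the lymphocyte genes Cd3e, Cd3d, Cd79a, Ms4a1 and Nkg7 had 0 UMIs in all BAMs. The sum of the 20-gene microglia list was 6277 to 15313 CPM in BAMs and 30522 to 43084 CPM in the remaining cells, and among BAMs it was lowest in the P9 wild-type libraries (6277 and 7044).

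The median BAM held 3423 and 3736 UMIs in P9 wild type, 2989 and 3064 at P28, 5234 and 5023 in ST2 Het, and 5523 and 5522 in ST2 KO. The median remaining cell held 3800 and 4038, 2310 and 2236, 5179 and 5260, and 5942 and 5276 in the same order. BAMs were thus shallower than the remaining cells in P9 wild type and deeper at P28. UMIs were summed per library over the BAMs and, separately, over the remaining cells, and these sums were compared with edgeR. Differences below are log2 fold changes on normalized sums, levels are CPM, and a gene passed at a Benjamini-Hochberg adjusted p under 0.05.

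Outside the rule genes, BAMs differed from the remaining cells of the same library in many genes at once. Of 9643 genes tested, 1458 (15.1%) were higher in BAMs and 1831 (19%) lower. At least 2-fold, 736 (7.63%) were higher and 749 (7.77%) lower. The cells had been parted by genes that belong to the same program, so these counts describe the gated cells and are no independent evidence for their name. With cells in division left out of both classes, 760 genes were higher and 899 lower, of only 5870 tested there.

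As a description of the label, the list of other BAM markers holds 30 genes that the rule did not use. Their summed level was 11447 to 17952 CPM in BAMs and 1711 to 2158 in the remaining cells. The filter on low counts kept 26 of them, and those near 0 in the remaining cells passed it only through the BAMs. Of these 26, 25 were higher in BAMs, with a median log2 difference of 4.69 against -0.07 over all genes. The exception was Lilra5, at 0.21 ± 0.29 (SE). All 20 microglia markers were lower, with a median of -2.34. The limit of the filter also applies to genes near 0 in the remaining cells on the lists below. Counts of BAMs against remaining cells over those lists are therefore descriptions too. The endocytic and lectin lists share genes with the BAM markers, among them Mrc1, Dab2, Cd36, Folr2, Clec10a and Cd209f.

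Several receptors for uptake were higher in BAMs. Mrc1, which binds mannose-rich glycoproteins, stood at 1868 and 1682 CPM in P9 wild-type BAMs, 905 and 1031 at P28, 1263 and 1620.0 in ST2 Het, and 1718 and 1559 in ST2 KO. The remaining cells had 12.1 to 171 CPM, so the classes did not overlap in any library. Dab2, an adaptor of clathrin-mediated uptake, was 4.57 ± 0.19 higher on the log2 scale, Stab1, a scavenger receptor, 2.58 ± 0.15, and the folate receptor gene Folr2 5.29 ± 0.25. The lipid and lipoprotein receptor gene Cd36 was 7.65 ± 0.21 higher, at 137 to 673 CPM in BAMs and 0.29 to 3.77 in the remaining cells.

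Of 18 endocytic receptors and adaptors the filter kept 15, some, such as Cd36, only through the BAMs. As a description, 11 of the 15 were higher in BAMs and 3 lower. The lower ones were Lrp1 (-1.34 ± 0.14), Scarb1 (-1.14 ± 0.21) and Cd68 (-0.35 ± 0.11). The apoptotic cell receptor Mertk differed by -0.18 ± 0.15 and did not pass, while the phosphatidylserine receptor gene Timd4 was 8.21 ± 0.42 higher.

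Of 17 C-type lectins, which recognise sugars on microbes and on tissue glycoproteins, the filter kept 10, and 9 of these were higher. Those near 0 in the remaining cells passed it only through the BAMs, so the count is a description. Cd209f, a mouse relative of DC-SIGN, was the gene with the greatest difference among those named by the rule, at 9.16 ± 0.23. It stood at 426 and 421 CPM in P9 wild-type BAMs, 196 and 358 at P28, 335 and 437 in ST2 Het, and 274 and 49.2 in ST2 KO, against 0 to 1.22 in the remaining cells. ST2 KO library 2 was the lowest. Clec10a (8.30 ± 0.22), Clec4n (7.95 ± 0.23) and Mgl2 (7.26 ± 0.23), a galactose-binding pair and the receptor dectin-2, had similar differences.

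Chemokines were abundant in BAMs. Of 21 chemokines, cytokines and growth factors tested, 15 were higher and 3 lower (Pdgfb, Vegfb and Tgfb1). Ccl7, a monocyte attractant, stood at 7588 and 5723 CPM in P9 wild-type BAMs, 10101 and 13164 at P28, 4496 and 7673 in ST2 Het, and 8397 and 7688 in ST2 KO. In the remaining cells it was 11.8 to 54.8 CPM. Ccl2, its close relative, had 4633 to 10338 CPM in BAMs against 42 to 115, and Ccl24, an eosinophil attractant, 2124 to 4211 against 13.2 to 29.4. Igf1, insulin-like growth factor 1, was 4.16 ± 0.23 higher, and Bmp2, a bone morphogenetic protein, 8.71 ± 0.23.

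Of 11 iron and heme genes tested, 10 were higher in BAMs. Hmox1, heme oxygenase, was 3.10 ± 0.17 higher, the biliverdin reductase Blvrb 2.34 ± 0.12 and the iron exporter ferroportin (Slc40a1) 2.06 ± 0.18. Ceruloplasmin (Cp), the ferroxidase that works with ferroportin, was 7.12 ± 0.27 higher. The exception was Slc11a1, at -0.11 ± 0.14.

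Among lipid genes, Apoe was the most abundant of all, with 31983 to 46379 CPM in BAMs against 1253 to 7001 in the remaining cells. The lipid transfer protein gene Pltp was 5.83 ± 0.26 higher, whereas Trem2 (-1.36 ± 0.11) and the lipoprotein lipase gene Lpl (-1.48 ± 0.17) were lower. Complement was divided: the C1q chains C1qb and C1qc were lower by less than 1.5-fold, and properdin (Cfp, 6.18 ± 0.18), C2 (4.90 ± 0.32) and the C5a receptor C5ar1 (2.86 ± 0.12) were higher.

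Proteases and their inhibitors went mainly the other way, with 7 of 13 lower and 4 higher. Ctsd, Ctss, Ctsl, Ctsz and Lgmn were lower by 0.88 to 1.24 on the log2 scale, and Ctsc was 2.60 ± 0.11 higher. Of transcription factors, Sall1, which maintains microglial identity, was lower by 1.87 ± 0.20 and Sall3 by 2.67 ± 0.35. Klf4 was 3.12 ± 0.26 higher, Klf2 2.27 ± 0.23, Cebpb 1.85 ± 0.12, Runx1 1.05 ± 0.14 and Maf 0.94 ± 0.11. Spi1 (PU.1), the factor shared by all macrophages, differed by -0.16 ± 0.11 and did not pass.

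Lower genes named by the rule included Serpine2 (-2.71 ± 0.16), the fructose transporter Slc2a5 (-2.67 ± 0.19), Sparc, Tmem119, Olfml3, P2ry12 and Siglech, all on the microglia list. The others were the adenosine receptor gene Adora3 (-3.24 ± 0.24), the serine synthesis enzyme Phgdh (-2.78 ± 0.21), Cd9, Adgrg1 and Ldhb. P2ry12, the microglial ADP receptor, stood at 475 to 1271 CPM in BAMs and 4035 to 4779.8 in the remaining cells. Csf1r was lower by only 0.36 ± 0.10. Thinned to 1000 UMIs a cell, 37.1% and 36.1% of P9 wild-type BAMs had a P2ry12 UMI, against 94.5% and 93.5% of the remaining cells. With the 39 BAMs richer in microglia UMIs left out, all 20 microglia genes were lower, with a median of -2.82. Those BAMs were left out for their UMIs of genes on this list, and no remaining cells were left out. A lower level in BAMs thus follows from the choice of cells, so these values are a description and no check.

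**Figure D2:**
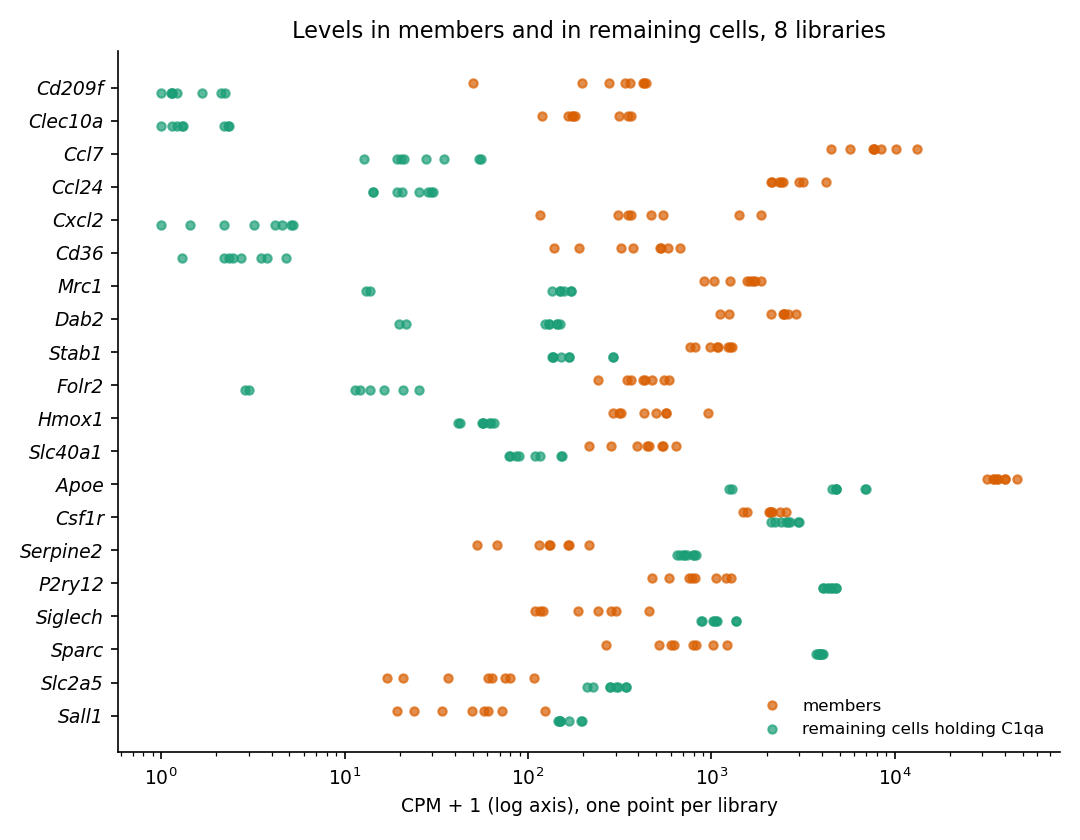
CPM plus 1 (log axis) of 20 genes, 1 point per library, in BAMs (orange, "members") and in the remaining cells holding C1qa (green), 8 libraries each. The lectins, chemokines and receptors at the top do not overlap between the classes, Csf1r overlaps, and the microglia genes at the bottom are lower in BAMs in every library.

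Cell cycle RNA was lower in BAMs than in the remaining cells of the P9 wild-type libraries. Thinned to 1000 UMIs, 9.17% (5.83% to 13.6%) and 9.13% (5.67% to 13.8%) of P9 wild-type BAMs had at least 3 UMIs of the 30-gene cell cycle list, against 31.2% and 32.3% of the remaining cells. Thinned to 2000 UMIs it was 24.1% and 23.2% against 48.4% and 47.1%. These shares were not tested. At P28 the shares were 1.89% and 2.17% of BAMs, 1 cell in each library, and 0.18% and 0.21% of the remaining cells. Of 29 cell cycle genes tested, 26 were lower in BAMs, with a median of -1.44. The ST2 Het libraries held 4 and 1 such BAMs, 15.4% (4.36% to 34.9%) and 5.56% (0.14% to 27.3%), against 26.2% and 27.7% of the remaining cells. The ST2 KO libraries held 3 and 2, 20% (4.33% to 48.1%) and 10% (1.24% to 31.7%), against 33.9% and 29.7%. In each of these 4 libraries the intervals of both classes overlapped.

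Interferon-response, NF-kB and immediate early genes were also higher in BAMs, with 11 of 15, 15 of 19 and 20 of 21 genes. The NF-kB list shares genes with the chemokine list above, among them Ccl2, Ccl3, Ccl4 and Cxcl2. Nr4a1 (5.03 ± 0.18), Egr2 (4.88 ± 0.15) and Ier3 (4.15 ± 0.19) led the immediate early list, Ifi204 (4.36 ± 0.21) the interferon list, and Il1b (4.71 ± 0.20) followed the chemokines in the NF-kB list.

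At P28 the BAMs of wild-type cortex had more immediate early and chemokine RNA than at P9, and less RNA of some scavenger receptors. MHC class II RNA was higher too, through 5 of the 99 P28 cells. Of 2945 genes tested within BAMs, 219 (7.44%) were higher at P28 and 108 (3.67%) lower. The median over all genes was 0.01. The result leaned on single libraries: without P28 library 1, 69 genes were higher and 14 lower, without P28 library 2, 121 and 34, without P9 library 1, 117 and 56, and without P9 library 2, 127 and 43. Without ST2 Het library 1 or 2, which enter only the estimate of the spread, 61 and 60 were lower. DESeq2 called 106 higher and 31 lower.

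The 4 P9 ST2 libraries did not enter this contrast and share no library with its P9 side. They do enter the estimate of the spread, and the P28 libraries stay the same. The counts that follow are thus a description and no independent check. All 6 P9 libraries lay on 1 side of both P28 libraries for 107 of the 219 higher genes (48.9%) and 71 of the 108 lower genes (65.7%). Over all genes tested the shares were 11.5% of those with a positive and 20.2% of those with a negative difference. Among genes whose P9 wild-type libraries lay apart from P28, which nearly every called gene does, it was 174 of 637 with a positive and 290 of 991 with a negative difference, against 107 of 218 and 71 of 108 of those called. The 637 and 991 include the called genes.

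Some scavenger and uptake receptors were lower at P28. Dab2 stood at 2902 and 2474 CPM in P9 wild-type BAMs and at 1111 and 1250.4 at P28, a fall of 1.09 ± 0.16 (adjusted p = 0.00013, edgeR). In the 4 P9 ST2 libraries it was 2105 to 2612 CPM. Mrc1 fell by 0.78 ± 0.17, Stab1 by 0.56 ± 0.17, Cd36 by 1.68 ± 0.23, and Fcna, which encodes ficolin A, by 1.67 ± 0.37. Of 12 endocytic genes tested 5 fell, 1, Mertk, rose (1.44 ± 0.28) and 6 did not pass. Without P28 library 1, 2 fell and 0 rose, and without P28 library 2, 3 fell. For each of the 5 that fell, all 6 P9 libraries lay above both P28 libraries.

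Ferroportin (Slc40a1) went from 537 and 544 CPM to 284 and 214, a fall of 1.01 ± 0.22, and Blvrb fell by 0.87 ± 0.19. Hmox1 (0.31 ± 0.35), Ftl1 (-0.10 ± 0.18) and Fth1 (0.11 ± 0.18) did not pass. Of the iron and heme genes 2 fell, but 0 without P28 library 1 and 1 without P28 library 2 or P9 library 1. Igfbp4, a binding protein for insulin-like growth factors, fell by 1.46 ± 0.18, and the endothelin receptor gene Ednrb by 1.62 ± 0.24. For all of these that fell, the 4 ST2 libraries lay with P9 wild type. Other lower genes named by the rule were Stmn1, Fundc2, Dok2, Rbm3, Hras, Gatm, Gas7, Tpm4 and Egfl7, with falls between 1.60 and 2.17. Of these, Fundc2, Dok2, Hras, Gas7 and Tpm4 passed the filter on low counts through the P9 libraries, so their falls are descriptions. Gatm, an enzyme of creatine synthesis, was 521 and 488 CPM at P9 and 132 and 126 at P28.

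Of 24 other BAM markers tested, 4 rose, 7 fell and 13 did not pass, with a median of -0.06. All 6 P9 libraries lay on 1 side of P28 for 3 of the 4 and 7 of the 7. Without P28 library 1, 4 fell. Besides those above, the lectins Clec10a (1.40 ± 0.23) and Mgl2 (1.75 ± 0.26) and the secreted protein gene Wfdc17 (2.19 ± 0.28) rose. Clec10a was 173 and 118 CPM in P9 wild-type BAMs, 362 and 352 at P28, and 164 to 312 in the ST2 libraries, all below P28. Folr2 (-0.24 ± 0.22), Ccl24 (0.13 ± 0.22), Maf (-0.08 ± 0.18) and Cd209f (-0.54 ± 0.32) did not pass.

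Of the rule genes, Lyve1 showed the widest gap with age, given as a description. It stood at 1238 and 1125 CPM in P9 wild-type BAMs and at 382 and 364 at P28. Thinned to 1000 UMIs, 55.0% (48.5% to 61.4%) and 59.4% (52.5% to 65.9%) of P9 wild-type BAMs had a Lyve1 UMI, against 30.2% and 28.3% at P28, with upper bounds of 44.3% and 43.5%. The ST2 libraries lay between 46.7% and 61.1%. In the remaining cells the share was at most 0.66%.

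Immediate early genes were higher at P28 in BAMs. Of 19 tested, 16 rose, with a median of 1.47. Fos stood at 1457 and 884 CPM in P9 wild-type BAMs, 4003 and 3638 at P28, 1827 and 2900.5 in ST2 Het, and 1932 and 1739 in ST2 KO. Every P28 value lay above every P9 value. Atf3 rose by 2.79 ± 0.34, Klf4 by 2.44 ± 0.23, Dusp1 by 2.01 ± 0.17 and Jun by 1.84 ± 0.17.

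For 13 of these 16 genes all 6 P9 libraries lay below both P28 libraries. The exceptions were Klf2, Hspa1a and Ier2. Klf2, a shear-responsive factor, was 815 and 723 CPM in P9 wild-type BAMs, 1933 and 1885 at P28, but 2155 and 2154 in ST2 Het, so a library of the same age could exceed P28. Hspa1a, a heat shock gene, was 140.3 and 106 CPM in P9 wild type and 435 to 964 in the ST2 libraries, against 1312 and 735 at P28. The levels of these 3 genes thus differed between P9 libraries as well as between ages.

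NF-kB targets and chemokines moved the same way, with 9 of 13 and 9 of 16 tested rising and none falling. The lists share genes, and Ccl2, Ccl3, Ccl4, Cxcl2 and Il1b rose in both, so these counts are not separate results. Of the NF-kB targets 4 rose without P9 library 2, P28 library 1 or P28 library 2, and of the chemokines and growth factors 5 without P28 library 1 and 4 without P28 library 2. The neutrophil attractant Cxcl2 stood at 470.4 and 546 CPM at P9 and 1409 and 1859.9 at P28, a rise of 1.78 ± 0.22, and at 115 to 364 in the ST2 libraries. Il1b, interleukin 1 beta, rose by 1.82 ± 0.21, Ccl3 by 1.25 ± 0.18, Ccl4 by 1.01 ± 0.19, Ccl7 by 0.91 ± 0.20 and Ccl2 by 0.78 ± 0.17. All 6 P9 libraries lay below P28 for 5 of the 9 NF-kB targets and 6 of the 9 chemokines and cytokines, and Ccl2 was an exception, with 6673 to 10338 CPM in the ST2 libraries against 7972 and 8979 at P28. Igf1 (-0.81 ± 0.28) and Tgfb1 (0.00 ± 0.20) did not pass.

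The microglia list was higher in P28 BAMs too, with 18 of 19 genes passing and a median of 1.35. Selplg rose by 2.92 ± 0.27, Tgfbr1 by 2.63 ± 0.27, Tmem119 by 2.46 ± 0.27 and P2ry12 by 1.03 ± 0.23. For 4 of the 18 did all 6 P9 libraries lie below P28. P2ry12 was 475 and 586 CPM in P9 wild-type BAMs, 1204 and 811 at P28, and 749 to 1271 in the ST2 libraries. With the 39 BAMs that held more microglia than rule UMIs left out, 5 of 15 tested microglia genes passed, and without 1 library between 5 (P28 library 1) and 18 did, with 8 without P9 library 1. Such cells were 12 of the 53 BAMs in P28 library 1.

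Other P28 genes named by the rule were Vcam1, the adhesion molecule (4.49 ± 0.35), Fkbp5, a glucocorticoid-responsive chaperone gene (4.39 ± 0.57), Pag1 (2.79 ± 0.40) and Socs3, a cytokine signalling inhibitor (2.74 ± 0.37). Each of these passed the filter on low counts only through the P28 libraries, so their rises are descriptions. Vcam1 stood at 12.7 and 9.85 CPM in P9 wild-type BAMs, 215 and 276 at P28, and 0 to 16.4 in the ST2 libraries. The protease inhibitor cystatin C (Cst3) rose by 2.01 ± 0.14, with Ctss (1.42 ± 0.16) and Ctsd (0.95 ± 0.15), whereas Apoe (0.21 ± 0.14) did not pass.

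**Figure D3:**
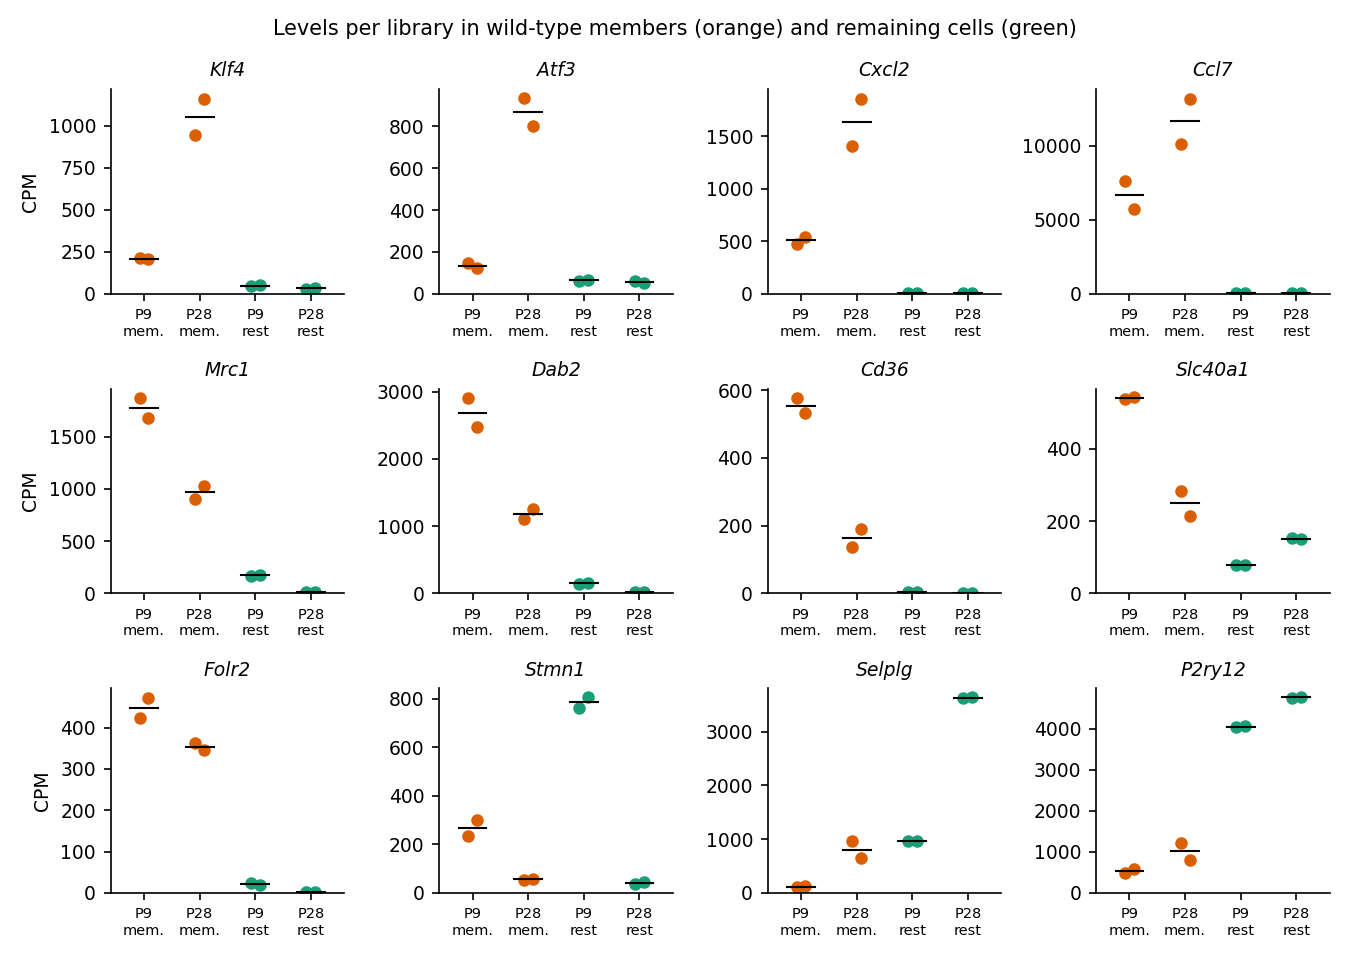
CPM per library (linear axes from 0) of 12 genes in wild-type BAMs ("mem.", orange) and remaining cells ("rest", green) at P9 and P28, with lines at the means of 2 libraries. Klf4, Atf3, Cxcl2 and Ccl7 were higher in P28 BAMs, Mrc1, Dab2, Cd36 and Slc40a1 lower, while Slc40a1 was higher and Mrc1 and Dab2 lower in P28 remaining cells.

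MHC class II RNA was higher at P28, and it came from few cells. H2-Aa, an alpha chain, stood at 0 and 1.09 CPM in P9 wild-type BAMs and at 499 and 886 at P28. In UMIs this was 0 and 1 against 102 and 141, a ratio of 1192 with a counting interval of 212 to 47280. H2-Ab1, its partner chain, had 2 UMIs at P9 and 332 at P28, a ratio of 814.5 (223.7 to 6753), and H2-Eb1 had 1 and 209, a ratio of 1025 (182 to 40690). These intervals take each UMI as independent. Most P28 UMIs lay in 5 cells, so the intervals are too narrow and leave out the spread between cells and libraries. Cd74, the invariant chain, was 116 and 63.5 CPM at P9, 2824 and 3965 at P28, and 28.5 to 59.6 in the ST2 libraries. Of 10 genes on the list 6 passed the filter on low counts, H2-Aa, H2-Ab1 and H2-Eb1 only through the P28 libraries, so a count over them is a description. These 6 were higher at P28 than in each of the 6 P9 libraries.

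Only 5 of the 99 P28 BAMs, 3 and 2 by library, had at least 3 UMIs of H2-Aa, H2-Ab1 and H2-Eb1. Without them H2-Aa had 2 and 1 UMIs, H2-Eb1 1 and 0, and Cd74 stood at 206 and 96.0 CPM. Of the MHC class II genes tested without these cells 1 of 2 rose. The call for the group therefore rests on 5 cells.

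Several BAM markers were at 0 in these 5 cells, and others were not. They had 0 UMIs of Lyve1, Cd163, Folr2, F13a1 and Cd209f and 1 of Mrc1, while the other P28 BAMs had 948 and 1125 CPM of Mrc1. They had 2811 and 4580 CPM of Pf4, 52040 and 46320 CPM of Cd74, and 581.5 and 300.3 CPM of Ccr2, the chemokine receptor of monocytes, which stood at 10.3 and 0 CPM in the other P28 BAMs. Clec4n was 0 and 450.5 CPM in them, against 448 and 473 in the other P28 BAMs. Cbr2 was 581.5 CPM in those of library 1, against 520.6 in the others, and 0 in those of library 2, and Timd4 had 1 UMI. They entered by the rule through Pf4, with smaller amounts of Ms4a7 and Cbr2, and no cell type name beyond the rule is given to them. The pair of P28 cells with 5 rule UMIs and 179 and 195 MHC class II UMIs lay outside the rule.

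Thinned to 1000 UMIs, 5 of 53 and 2 of 46 P28 BAMs had an MHC class II UMI, 9.43% (3.14% to 20.7%) and 4.35% (0.53% to 14.8%). At P9 it was 0 of 240, which allows a share of up to 1.25%, and 1 of 219 (0.46%). In the remaining cells the share was 1.32% to 2.69% in the wild-type libraries, so the level in P9 BAMs was not above it. In the ST2 libraries it was 0 of 26, 18, 15 and 20 BAMs, which allows up to 11.5%, 16.7%, 20% and 15%. Of the 7 thinned P28 BAMs with an MHC class II UMI, 0 had a Lyve1 UMI (0% to 41.0%), against 31.5% (22.2% to 42.0%) of the P28 BAMs without one, so the intervals overlapped. Thinned to 2000 UMIs it was 1 of 10 (10%, 0.25% to 44.5%) against 46.8% (35.5% to 58.4%), and without thinning 5 of 13 (38.5%, 13.9% to 68.4%) against 58.1% (47.0% to 68.7%). The difference in Lyve1 was not tested, and overlapping intervals do not show equal shares. The 5 cells with at least 3 MHC class II UMIs had 0 Lyve1 UMIs. The Lyve1 UMIs found without thinning thus came from BAMs with fewer than 3 MHC class II UMIs.

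**Figure D4:**
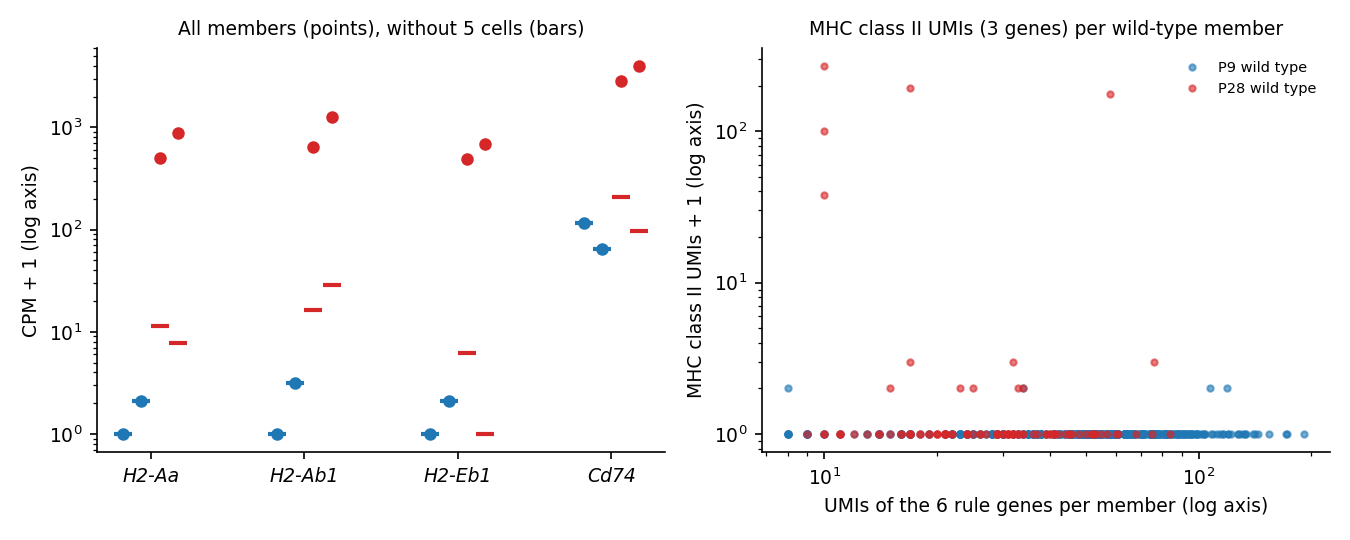
Left, CPM plus 1 (log axis) of 4 MHC class II genes in BAMs of P9 (blue) and P28 (red) wild-type libraries, as points for all BAMs and as bars without the 5 P28 cells. Right, UMIs of H2-Aa, H2-Ab1 and H2-Eb1 plus 1 (log axis) against UMIs of the 6 rule genes (log axis) in each wild-type BAM; 5 P28 cells hold 37 UMIs or more and all others at most 2.

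The same contrast in the remaining cells, from the same libraries, is set beside these values. Of 11715 genes tested, 27.1% were higher at P28 there and 25.8% lower. In that class 13 of 21 immediate early genes fell and 4 rose, with a median of -0.53 against 1.47 in BAMs. Fos, for instance, went from 281 and 296 CPM to 136 and 130.1 in the remaining cells, and from 1457 and 884 to 4003 and 3638 in BAMs. All 29 cell cycle genes tested fell in the remaining cells, with a median of -5.54. Only 6 passed the filter on low counts in BAMs, and these 6 fell, with a median of -1.74. Birc5 and Top2a, at 0 CPM in P28 BAMs, passed it only through P9 libraries, so that count is a description. The medians of the classes cover different sets of genes. For 4 of these 6 all 6 P9 libraries lay above both P28 libraries. Without P28 library 1, 0 of 7 tested cell cycle genes passed in BAMs, without P28 library 2 or P9 library 2, 2 passed, and without either ST2 Het library, 3. With the BAMs richer in microglia than in rule UMIs left out, 1 of 4 tested cell cycle genes passed in BAMs, and with those above 10 microglia UMIs left out, 0 of 4.

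The difference between the classes was tested as an interaction of class and age, on the same 2945 genes. The change from P9 to P28 was more positive in BAMs for 229 genes (7.78%) and more negative for 80 (2.72%). Among immediate early genes it was more positive in 18 of 19 and among microglia markers in 13 of 19. Among NF-kB targets it was more positive in 8 of 13, and among chemokines in 10 of 16 with 1 more negative. The NF-kB and chemokine lists share genes. For the microglia markers this fell to 1 of 15 with the 39 BAMs richer in microglia UMIs left out. Fos differed by 2.90 ± 0.19, Klf2 by 2.84 ± 0.16 and Klf4 by 2.92 ± 0.19. Without 1 library, 16 to 18 of the immediate early genes passed.

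A more positive interaction did not always mean a rise in BAMs. Mrc1 fell in BAMs, and its interaction was 2.94 ± 0.18, since the remaining cells went from 169.9 and 171 CPM to 12.1 and 12.8. Dab2 had 1.73 ± 0.17, Folr2 3.20 ± 0.32, and Apoe 2.59 ± 0.14 with 7001 and 6871 CPM at P9 and 1253 and 1289.6 at P28 in the remaining cells. Ferroportin (Slc40a1, -2.01 ± 0.19) and Stab1 (-1.42 ± 0.16) fell in BAMs and rose in the remaining cells. Stab1 there went from 166 and 167 to 289 and 291 CPM. At least 1 rule UMI was found in 25.7% and 31.7% of P9 wild-type remaining cells, and in 5.25% and 4.16% at P28. How much BAM RNA adds to the Mrc1, Dab2 and Folr2 levels of the remaining cells was not tested.

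**Figure D5:**
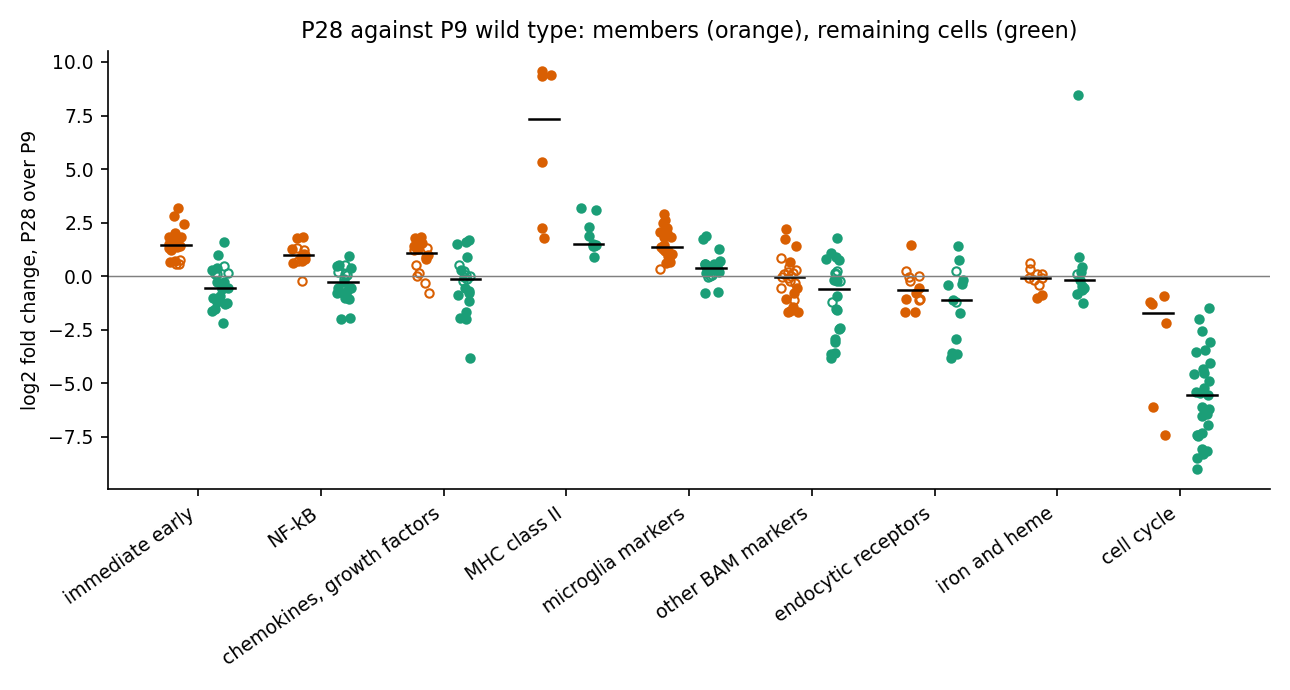
Log2 fold change, P28 over P9 wild type, of the tested genes of 9 lists in BAMs (orange) and in the remaining cells (green). Filled points passed at an adjusted p under 0.05, open points did not, and bars are medians; the immediate early list has a median of 1.47 in BAMs and -0.53 in the remaining cells.

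In the ST2 comparison the targeted gene was looked at first. Il1rl1 had 6 and 3 UMIs in P9 wild-type BAMs, 0 and 0 at P28, 0 and 2 in ST2 Het and 0 and 2 in ST2 KO. In the remaining cells it stood at 2.13 to 7.48 CPM, with 7.48 and 6.06 in ST2 KO and 5.43 and 6.67 in ST2 Het. UMIs thus remained in the ST2 KO libraries. Tags of the 3' end can lie outside a deleted part, so these counts do not check the genotype.

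No gene differed between ST2 KO and ST2 Het BAMs in edgeR (0 of 2945 at an adjusted p under 0.05, and 209 or 7.10% at an unadjusted p under 0.05). DESeq2 called 1 higher and 3 lower. With the replicate number as a block 6 were higher and 7 lower. The libraries held 26, 18, 15 and 20 BAMs. In the remaining cells, from the same libraries, 28 genes (0.239%) were higher in ST2 KO and 28 (0.239%) lower, of 11715.

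None of the 24 other BAM markers tested passed between these groups. Mrc1 differed by 0.22 ± 0.18, Dab2 by 0.18 ± 0.16, Stab1 by 0.08 ± 0.18, Ccl24 by 0.52 ± 0.23 and Maf by 0.27 ± 0.20, with adjusted p-values from 0.636 (Ccl24, edgeR) upward. The differences were larger for Clec4n (1.13 ± 0.28), Cd36 (0.84 ± 0.24), Folr2 (-0.67 ± 0.26) and Cd209f (-1.36 ± 0.46), and none passed. Clec4n was 193 and 339.5 CPM in ST2 Het and 620.3 and 501 in ST2 KO, with groups that did not overlap.

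The interaction of class and genotype passed for 7 genes. It was more positive in BAMs for Ccl3 and Ccl4 (0.0679% of genes) and more negative for Crip1, Stmn1, Tubb5, Tuba1b and Actb (0.170%). Ccl3, a macrophage inflammatory protein, stood at 1178 and 931 CPM in ST2 Het BAMs and 2374 and 1723 in ST2 KO, against 214 and 177, and 151 and 141, in the remaining cells. Crip1, a small LIM protein gene, went from 328 and 388 to 59.6 and 107 CPM in BAMs. Tubb5, a tubulin, stood at 778 and 747 CPM in ST2 Het BAMs and 382 and 320.0 in ST2 KO. With cells in division left out of both classes 0 genes passed in either direction, and without 1 library 0 to 22 were more positive and 0 to 14 more negative.

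The ST2 KO libraries also differed from the ST2 Het libraries in sex-linked RNA. Ddx3y, a Y-linked gene, had 47.7 and 41.0 CPM in ST2 KO BAMs and 0 in all others. Xist, from the inactive X, was 1026 and 591 CPM in ST2 KO BAMs and 1584 and 1668 in ST2 Het. Sex make-up and genotype cannot be told apart in this comparison.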

How the data were processed

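UMI counts per gene and cell of the 8 libraries were used as deposited by the authors, who ran Cell Ranger on mm10, per the submitters' processing notes, with no version stated there. The matrices held 15507 barcodes and 27998 genes. Cells with under 500 genes or at least 10% mitochondrial UMIs were left out, and no doublet caller was run. Counts were summed per library over BAMs and over the remaining cells and tested with edgeR 4.0.16 in R 4.3.3 (TMM factors, filterByExpr, quasi-likelihood F test, Benjamini-Hochberg adjustment over all genes tested), leaving out the 6 rule genes and C1qa. Members against remaining cells had library as a term. Contrasts between groups within BAMs shared 1 spread over 4 groups. Standard errors come from the fold change and its F value. CPM are UMIs scaled to a fixed total of the summed cells.

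Members and gene lists were chosen with earlier results of these data known, so their counts are no independent support. Named genes were, per comparison and direction, the 12 with the greatest fold change at an adjusted p under 0.05, a mean of at least 100 CPM in 1 group and no library against the direction, besides list examples. Shares were taken after thinning each cell to 1000 UMIs, with exact 95% intervals that cover counting error only, as do the upper limits at a count of 0 (3 cells). Cells with fewer UMIs than the thinned number were left out of those shares. DESeq2 1.42.0, other thresholds, filters and cells left out were alternatives. The scripts were tested on simulated counts. No label says that replicate numbers pair the libraries. Coordinates and sequences are from RefSeq, GRCm38.p6.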

Additional observations from a re-analysis of the deposited data

Results flagged for a closer look

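The change from P9 to P28 differed between BAMs and the remaining cells of the same libraries, by an interaction in edgeR with adjusted p under 0.05, in the following genes named by the rule. All values are log2 differences, BAMs minus remaining cells. The interaction was positive for the MHC class II genes H2-Ab1 (8.03), H2-Eb1 (7.38), H2-Aa (7.24) and Cd74 (3.11), which rest on 5 cells. It was also positive for the extracellular peroxidase gene Gpx3 (7.78), the centromere protein gene Cenpa (3.54), the matrix protein gene Cyr61 (3.53), Tnf (3.22), Folr2 (3.20), Atf3 (2.94), Mrc1 (2.94) and Klf4 (2.92). A positive value need not mean a rise in BAMs. Gpx3 changed by 0.60 in BAMs and by -7.31 in the remaining cells, and Cenpa by -1.30 and -4.92. In BAMs Folr2 changed by -0.24 and Mrc1 by -0.78.

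The interaction was negative for the cytokine gene Tslp (-2.84), Slc40a1 (-2.01), Cdc42se2 (-1.57), Wasl (-1.49), RP23-81F19.2 (-1.47), Crip1 (-1.44), Gimap6 (-1.44), Grap (-1.42), Stab1 (-1.42), Sult1a1 (-1.38), Ccl9 (-1.29) and the interferon-induced gene Ifitm3 (-1.28). A negative value need not mean a fall in BAMs, since Sult1a1 changed by 1.21 in BAMs and by 2.48 in the remaining cells.

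The difference between ST2 KO and ST2 Het also differed between the classes by the same test. The interaction was 1.35 for Ccl3 and 1.23 for Ccl4, and -2.38 for Crip1, -1.98 for Stmn1, -1.24 for Tubb5, -1.21 for Tuba1b and -0.84 for Actb. The ST2 KO libraries held 15 and 20 BAMs.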

How the results depend on the processing

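All 548 alternatives for genes named between BAMs and the remaining cells kept their direction and call. For the microglia genes among them, leaving out microglia-rich BAMs favours a lower level in BAMs by the choice of cells, so it is no check. With cells in division left out, 760 genes were higher and 899 lower, of 5870 tested against 9643 in the main fit. Without 1 library 1089 to 1507 were higher and 1421 to 1848 lower. For P28 against P9 in BAMs, 478 alternatives of named genes kept the call and 16 lost it. DESeq2 gave 106 higher and 31 lower, no low-count filter 189 lower, cells in division left out 121 higher and 39 lower, BAMs with more microglia than rule UMIs left out 69 lower, BAMs with more than 10 microglia UMIs left out 40 lower, and leaving out 1 library 69 to 209 higher and 14 to 125 lower. For ST2 KO against Het, DESeq2 gave 1 higher and 3 lower, no low-count filter 25 and 14, a threshold of 12 rule UMIs 1 and 4, and leaving out 1 library 0 to 18 and 0 to 8. A threshold of 5 UMIs, microglia-rich BAMs left out and cells in division left out each gave 1 lower. Some alternatives above, on microglia, endothelial, neutrophil and MHC class II UMIs, were chosen after seeing the data. For the interaction of class and age, DESeq2 gave 151 more positive and 33 more negative, cells in division left out 132 and 34, BAMs above 10 microglia UMIs left out 139 more negative, and leaving out 1 library 117 to 300 and 29 to 58. Of named genes there, 444 kept the call, 31 lost it, and Cd74 reversed to -1.30 (edgeR adjusted p = 0.0764) without the 5 MHC class II cells. For the interaction of class and genotype, DESeq2 gave 4 more positive, no filter 22 and 12, at least 5 UMIs 2 more negative, at least 12 UMIs 4 and 8, cells in division left out 0 and 0, BAMs above 10 microglia UMIs left out 0 and 2, and neutrophil-rich cells left out 4 more positive. It was 1 more positive with microglia-rich BAMs, endothelial-rich cells or MHC class II cells left out, and under a stricter cell filter (1000 genes, 5% mitochondrial UMIs). Leaving out 1 library gave 0 to 22 and 0 to 14. Of named genes there 97 kept the call, 41 lost it, and Ccl4 reversed to -11.33 (edgeR adjusted p = 0.798) with cells in division left out. The number of genes tested also differed between alternatives. For P28 against P9 in BAMs it was 2945 in the main fit and 13893 without the low-count filter. It was 1942 with cells in division left out and 2248 with BAMs richer in microglia than rule UMIs left out. With BAMs above 10 microglia UMIs left out it was 2095. The causes were not tested.

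The replicate numbers were used as a block as a check of pairing. Deviations of same-numbered libraries correlated at -0.09 (wild type) and 0.01 (ST2) in BAMs, and in the remaining cells at -0.20 and 0.40. No label says that a number marks a shared litter, batch or day, though the barcode prefixes of both ST2 libraries numbered 1 carry the word redo. The block gave 213 higher and 100 lower for P28 against P9, and 6 and 7 for ST2 KO against Het.

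The difference in BAM share between P9 and P28 was 7.47 points at a threshold of 5 UMIs, 6.68 under the stricter cell filter, 6.07 thinned to 2000 UMIs, and 6.79 to 7.10 without 1 library. That between ST2 KO and Het was 0.31 to 0.91 without 1 library. Thinned to 2000 UMIs, Lyve1 was found in 74.5% and 73.0% of P9 wild-type BAMs, 47.9% in P28 library 1 and 80.0% in ST2 KO library 1, and at least 3 cell cycle UMIs in 24.1%, 23.2% and, in ST2 Het library 2, 33.3%. The ST2 libraries held 15 to 26 BAMs each.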
